A study of Mus musculus with 2 samples.

Results

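The cell cycle and DNA replication genes described here are 37 named genes, chosen by symbol among the gene probes of a mouse ureter expression array. They are 37 of the 21143 genes tested, and all 37 were found, on 51 probes. Every one of these probes passed the filter on dim spots, and every member's spots were well above background in all 4 RNAs. By role they comprise 11 replication genes, 17 mitosis genes, 5 cyclins of G1 and S phase, the transcription factors E2f1 and Foxm1, the proliferation antigen Mki67 and the cyclin-dependent kinase inhibitor Cdkn1a.

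Ureters of NMRI mice at postnatal day 4 were compared on 2 two-colour arrays, with an Rbpj-cKO RNA and a control RNA on each. Rbpj-cKO pups were Tbx18(cre/+);Rbpj(fx/fx), so that cre recombinase, expressed from the Tbx18 locus of the mesenchyme around the ureter, deletes the DNA-binding partner of the Notch receptors. Control pups were Tbx18(+/+);Rbpj(fx/n.d.): they carried no cre, had both Tbx18 alleles intact, and their second Rbpj allele is listed as n.d. The cells of other lineages in an Rbpj-cKO ureter, such as the urothelium, lie outside the lineage this cre is known for. Array 1 held a pair labelled female, with Rbpj-cKO RNA in red and control RNA in green, and array 2 a pair labelled male with the dyes exchanged. The sources used here do not give the number of animals behind each RNA, or any pooling. All 10 smooth muscle, 13 urothelium and 10 fibroblast markers were measured in all 4 RNAs.

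Rbpj, the targeted gene, had log2 ratios of Rbpj-cKO over control of -0.92 on array 1 and -1.10 on array 2 (limma adjusted p = 0.0873). Tbx18 had ratios of 0.16 and 0.01. The sex label of array 1 was at odds with its RNA. There the Y-linked Ddx3y and Eif2s3y had ratios of 4.23 and 4.26, although both RNAs were labelled female, and Xist, the RNA of the inactive X chromosome, was well above background in both. On array 2 Y-linked genes were measured in both RNAs, and neither gave an Xist signal well above background. The RNAs of array 1 thus differed in Y-linked signal as well as in genotype, and in its ratios sex make-up and genotype cannot be told apart. Results are therefore given for each array, and the values of array 2 are those without the pair labelled female. Across all genes the ratios of the arrays correlated with r = 0.45, over genes that share both arrays and are not independent. That r was 0.17 when median centring replaced loess normalization. In whole ureters fewer cells of a type and less RNA per cell cannot be told apart.

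Cells copy their DNA in S phase and separate the copies in mitosis. The replication genes encode the MCM helicase (Mcm2 to Mcm7), its loader Cdc6, the sliding clamp Pcna and the enzymes of nucleotide supply Tyms, Rrm1 and Rrm2. They are transcribed around the entry into S phase, largely through E2F factors, whereas the mitosis genes follow in G2 and mitosis through promoter elements called CHR and CCAAT boxes. Cdkn1a encodes p21, which blocks cyclin-dependent kinases and is a classical target of p53. In the postnatal ureter, dividing cells are found in the growing muscle, connective tissue and urothelium.

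Promoter sequence bears on these roles, and 5 stretches are shown because they carry the elements just named. RefSeq windows of 300 bases (250 before and 50 after the start, GRCm38.p6) matched 29 of the 37 members, with 32 windows in all. Each stretch holds the 120 bases before a start, read 5′ to 3′ on the gene's strand, and capitals mark the matches. The element is p53 for the upstream start of Cdkn1a (chr17:29090859-29090978, plus strand) and RBPJ for its downstream start (chr17:29093649-29093768, plus strand). It is CHR for Cdc20 (chr4:118437344-118437463, minus strand) and Cdk1 (chr10:69352913-69353032, minus strand), and E2F for Mcm6 (chr1:128359706-128359825, minus strand), where 2 of the 3 matches overlap on opposite strands.
Cdkn1a, upstream start: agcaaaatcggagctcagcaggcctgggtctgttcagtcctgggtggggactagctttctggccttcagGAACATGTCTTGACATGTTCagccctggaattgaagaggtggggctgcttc
Cdkn1a, downstream start: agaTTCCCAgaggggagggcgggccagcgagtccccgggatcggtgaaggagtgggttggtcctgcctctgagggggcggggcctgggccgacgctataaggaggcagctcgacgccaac
Cdc20: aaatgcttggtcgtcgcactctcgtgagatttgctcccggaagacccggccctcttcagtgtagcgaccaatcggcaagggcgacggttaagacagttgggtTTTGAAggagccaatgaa
Cdk1: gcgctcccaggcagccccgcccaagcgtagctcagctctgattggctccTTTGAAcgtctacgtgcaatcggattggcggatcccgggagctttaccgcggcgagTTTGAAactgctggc
Mcm6: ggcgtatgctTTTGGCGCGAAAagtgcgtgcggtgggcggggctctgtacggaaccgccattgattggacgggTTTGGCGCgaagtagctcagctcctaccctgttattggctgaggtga

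Motifs were searched as letters on both strands, and a match is a description, not a site. The CHR letters (TTTGAA or TTCGAA) stood in 12 of 16 mitosis windows and 2 of 11 replication windows, beside 19.2% of all 32851 windows. Prc1 had overlapping windows that were counted apart. By gene, the CHR letters stood in 11 of the 15 mitosis members with a window. The E2F letters (TTTNNCGC, each N a C or a G) stood in 1 of 16 mitosis windows and 5 of 11 replication windows, beside 2.26% of all. The CCAAT letters stood in 14 of 16 mitosis windows and 9 of 11 replication windows, beside 37.4% of all. The RBPJ letters (TGGGAA) stood in 5 of 16 mitosis and 5 of 11 replication windows, and in 25.6% of all.

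Of the 37 members, 35 had a lower signal in Rbpj-cKO RNA than in control RNA on array 1, where 52.1% of all genes did. On array 2, 8 were lower, where 45.9% of all genes were, and 29 were higher in Rbpj-cKO RNA. Thus 28 members were lower on array 1 and higher on array 2, as were 22.3% of all genes, 7 were lower on both (29.8% of all genes) and 1, Cdkn1a, was higher on both (31.7% of all genes). Ccnd2 alone was higher on array 1 and lower on array 2, as were 16.1% of all genes. With median centring in place of loess, 19 members were lower on both arrays (31.9% of all genes) and 13 lower on array 1 and higher on array 2. The median log2 ratio of the members was -0.32 on array 1 and 0.07 on array 2, beside -0.01 and 0.01 over all genes. On array 1, 30 members (81.1%) lay below the lower quartile of all genes, against 3 on array 2.

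No member passed the threshold of limma (moderated test of the mean of both arrays against 0, Benjamini-Hochberg adjusted p under 0.05 over 21143 genes), in either direction. Of all genes, 0.0% passed as higher and 0.00473% as lower, which is 1 gene. The smallest adjusted p among the members was 0.25, for Cdkn1a. With limma's trended and robust option, again 0 members passed. At an unadjusted p under 0.05, 1 member was higher (Cdkn1a) and 0 were lower, against 6.98% and 7.02% of all genes. No member reached 1.5-fold with 1 sign on both arrays, which 0.402% of genes did as higher and 0.795% as lower. Array 1 alone had 2 members at least 1.5-fold lower, Rrm2 and Birc5, beside 3.7% of all genes, and array 2 had none at 1.5-fold in either direction, beside 2.6%.

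**Figure D1:**
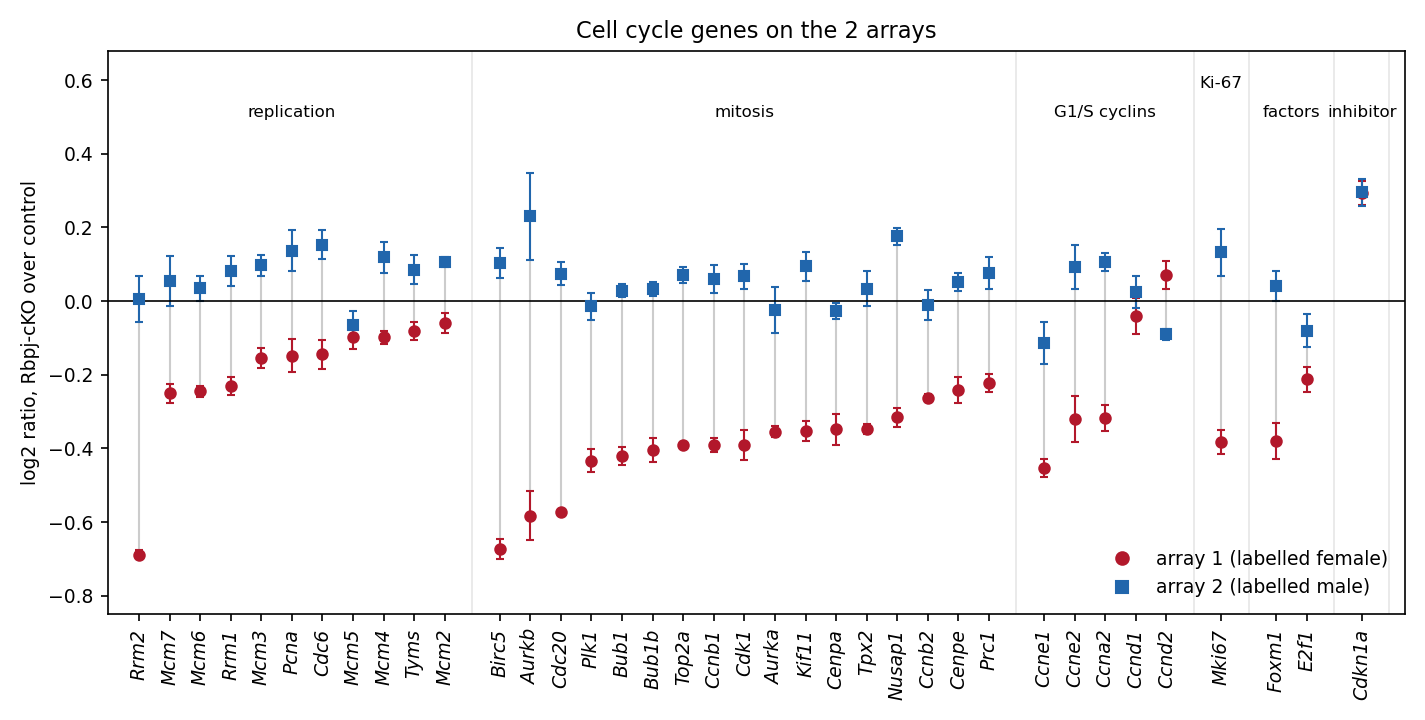
Log2 ratios of Rbpj-cKO over control (y axis) for the 37 members by role (x axis), with circles for array 1, squares for array 2 and bars for the SD between the spots of a probe. The circles lie below 0 for 35 members, the squares lie above 0 for 29, and Cdkn1a is above 0 on both arrays.

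Replication genes were slightly lower in Rbpj-cKO RNA on array 1 and slightly higher on array 2. All 11 were below 0 on array 1, with a median log2 ratio of -0.15, and 10 of 11 were above 0 on array 2, with a median of 0.08. After median centring in place of loess the array 2 median was -0.09, so its direction depends on the normalization, and 9 of 11 were below 0 on array 1. On array 1, 10 of 11 were below 0 in the authors' deposited table. Over the alternatives the array 1 median was -0.15 to -0.07. Mcm5 was the only replication gene lower on both arrays, with log2 ratios of -0.10 and -0.07. The dimmer of the Mcm3 probes, not the one used, was also lower on both, at -0.08 and -0.01.

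Rrm2, the small subunit of ribonucleotide reductase, stood apart among them. Its normalised log2 intensity was 14.31 on array 1 and 14.56 on array 2 in Rbpj-cKO RNA, against 15.00 and 14.56 in control RNA. The Rbpj-cKO RNA of array 1 was the lowest of the 4 and the control RNA of array 1 the highest, while the pair on array 2 was level. Its log2 ratios were -0.69 and 0.01, with a mean of -0.34 ± 0.49 (SD, n = 2 arrays; limma adjusted p = 0.499). Rrm1, the large subunit of the same enzyme, had ratios of -0.23 and 0.08.

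The 6 MCM subunits work as a single ring, and their ratios are given singly. For comparison, the quartiles of all genes lay at -0.13 and 0.10 on array 1 and at -0.08 and 0.10 on array 2. On array 1 the log2 ratios were -0.06 for Mcm2, -0.16 for Mcm3, -0.10 for Mcm4, -0.10 for Mcm5, -0.24 for Mcm6 and -0.25 for Mcm7. On array 2 they were 0.11 for Mcm2, 0.10 for Mcm3, 0.12 for Mcm4, -0.07 for Mcm5, 0.03 for Mcm6 and 0.06 for Mcm7. Mcm6 and Mcm7 were the lowest subunits on array 1. The mean log2 ratios of Mcm2 and Mcm4 changed sign under median centring and that of Mcm3 in the authors' deposited table, all from means within 0.03 of 0.

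Cdc6, which loads the helicase at origins, had log2 ratios of -0.14 and 0.15. Pcna, the clamp that holds DNA polymerase, had ratios of -0.15 and 0.14, and Tyms, which makes thymidylate, -0.08 and 0.08. In each of these the arrays cancelled to a mean within 0.01 of 0, and the sign of that mean changed with the normalization.

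Mitosis genes were lower in Rbpj-cKO RNA on array 1 by a larger amount at the median. All 17 were below 0 there, with a median log2 ratio of -0.39 and a range of -0.67 to -0.22. On array 2 the median was 0.06, with a range of -0.03 to 0.23. All 17 stayed below 0 on array 1 under each of the 10 alternatives, with medians of -0.40 to -0.32. On array 2 median centring turned the median to -0.01.

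Birc5 (survivin), which belongs with the kinase Aurkb to the chromosomal passenger complex, was the lowest mitosis gene on array 1. Its normalised log2 intensity was 14.07 and 14.51 in Rbpj-cKO RNA, against 14.75 and 14.41 in control RNA. The Rbpj-cKO RNA of array 1 was below the other 3, and on array 2 Rbpj-cKO was above control, so the groups overlapped. The log2 ratios were -0.67 and 0.10, with a mean of -0.29 ± 0.55 (SD, n = 2; limma adjusted p = 0.612). Its 3 probes had ratios of -0.47, -0.65 and -0.67 on array 1 and of -0.08, 0.08 and 0.10 on array 2.

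Aurkb had the widest gap between the arrays, at log2 ratios of -0.58 and 0.23. Its probe was dim, with log2 intensities of 7.51 and 8.12 in Rbpj-cKO RNA, against 8.09 and 7.89 in control RNA. It also had the largest SD between spots of all members, 0.118, which covers technical error within an array only. Cdc20, the activator of the anaphase-promoting complex, had log2 intensities of 14.02 and 14.55 in Rbpj-cKO RNA, against 14.59 and 14.48 in control RNA. Its log2 ratios were -0.57 and 0.07 (limma adjusted p = 0.605), and again only the Rbpj-cKO RNA of array 1 stood low.

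The kinases and checkpoint genes lay close together. Plk1, a kinase of mitotic entry, had log2 ratios of -0.43 and -0.01, and Aurka, a spindle-pole kinase, -0.36 and -0.02. The spindle checkpoint genes Bub1 and Bub1b had ratios of -0.42 and -0.40 on array 1 and of 0.03 each on array 2. Cdk1, the kinase that drives mitosis, and its partner Ccnb1 both had a ratio of -0.39 on array 1, with 0.07 and 0.06 on array 2. The 2 other Cdk1 probes had -0.12 and -0.54 on array 1, with 0.05 and 0.18 on array 2. Ccnb2, the other B-type cyclin, had a smaller difference, -0.26 and -0.01.

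Among the genes of chromosomes and spindle, Top2a, which untangles DNA, had log2 ratios of -0.39 and 0.07. The spindle motor Kif11 had -0.35 and 0.09, the spindle assembly factor Tpx2 -0.35 and 0.03, and the microtubule binder Nusap1 -0.32 and 0.18. Cenpa, the histone of the centromere, had -0.35 and -0.03. Cenpe, a kinetochore motor, and Prc1, which bundles the central spindle, were the mitosis genes nearest to 0 on array 1, at -0.24 and -0.22, with 0.05 and 0.08 on array 2. The 4 mitosis genes lower on both arrays were Plk1, Aurka, Cenpa and Ccnb2, each with an array 2 ratio within 0.03 of 0.

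On array 1 the replication median exceeded the mitosis median by 0.24 on the log2 scale, and on array 2 by 0.02. Of the 11 replication genes, 7 lay above Prc1, the highest mitosis gene, on array 1. The 4 that did not were Rrm2, Mcm7, Mcm6 and Rrm1. Of all genes on array 1, 7.20% lay below the mitosis median and 22.8% below the replication median. Genes of a role share their RNAs and are not replicates, so this difference has no test. Across the alternatives the mitosis median minus the replication median was -0.32 to -0.23 on array 1 and -0.04 to 0.07 on array 2.

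Nearly all members had a lower ratio on array 1. The ratio was lower on array 1 than on array 2 for 36 of 37, as it was for 57.5% of all genes. With 1 pair per array, the spread between pairs of the same kind was not measured, and the gap has no test. The median gap was -0.33, and 8.97% of all genes had a gap further below 0. Of all genes, 1.79% had opposite signs with a gap of at least 1.5-fold. The labelled sex, the dye orientation and the replicate number changed together between the arrays and cannot be told apart. On array 1 the Y-linked signal also differed between the Rbpj-cKO and control RNA, so sex make-up is a further difference that cannot be separated. Cdkn1a, Mcm5 and Ccnd1 had the smallest gaps, and Ccnd2 was the member whose ratio was higher on array 1 than on array 2.

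**Figure D2:**
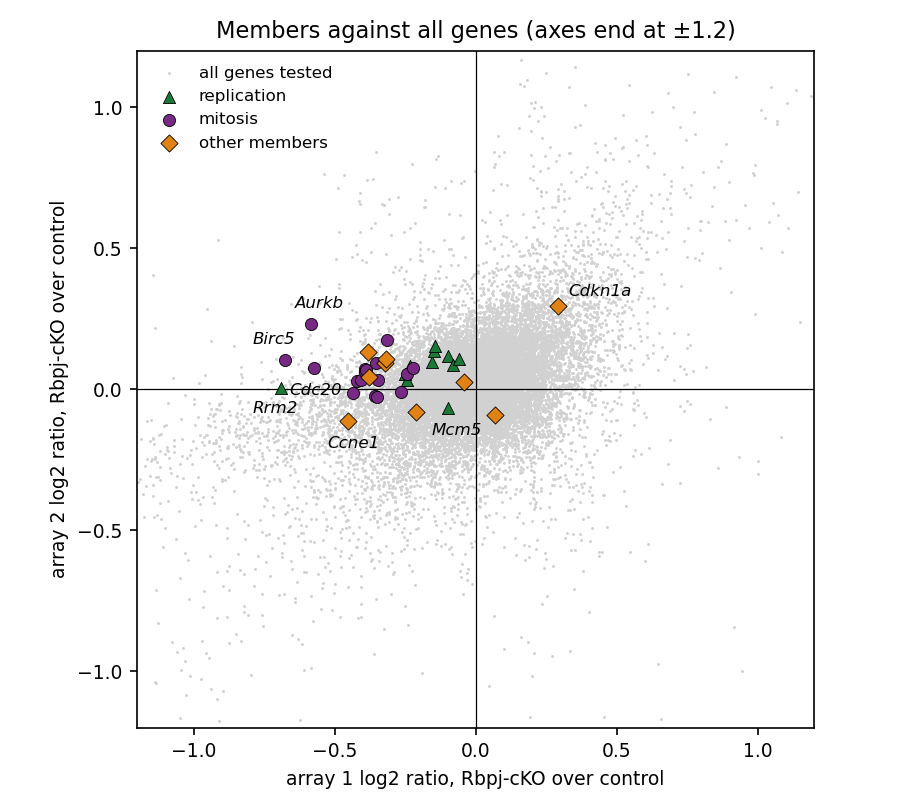
Log2 ratio of Rbpj-cKO over control on array 1 (x axis) against array 2 (y axis), with all tested genes in grey and members as triangles (replication), circles (mitosis) and diamonds (others), within ±1.2. Mitosis genes sit left of most replication genes at nearly the same height, and Cdkn1a is the only member in the upper right.

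Cyclins of G1 and S phase divided by type. Ccne1, a cyclin E that drives entry into S phase, was the member with the lowest mean among those lower on both arrays. Its normalised log2 intensity was 12.21 and 12.38 in Rbpj-cKO RNA, against 12.66 and 12.49 in control RNA, with both Rbpj-cKO values below both control values. The log2 ratios were -0.45 and -0.11, with a mean of -0.28 ± 0.24 (SD, n = 2; limma adjusted p = 0.369), and its other probe had -0.65 and -0.10. Ccne2, the second cyclin E, had -0.32 and 0.09 on a dim probe, and Ccna2, the cyclin of S and G2 phase, had -0.32 and 0.11. The D-type cyclins, which respond to growth factors, were near 0, with -0.04 and 0.02 for Ccnd1 and 0.07 and -0.09 for Ccnd2. Both means were below 0 except with the scanner log ratio and the authors' deposited table, where they were above it by at most 0.022.

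E2f1, the transcription factor of S phase entry, had log2 ratios of -0.21 and -0.08. Foxm1, which activates mitosis genes in G2, had -0.38 and 0.04, and its other probe -0.23 and -0.05, which is lower on both arrays. Mki67, which encodes the Ki-67 antigen used to count dividing cells, had log2 intensities of 14.52 and 14.85 in Rbpj-cKO RNA, against 14.91 and 14.71 in control RNA. Its ratios of -0.38 and 0.13 had opposite signs and averaged -0.12 ± 0.36 (SD, n = 2; limma adjusted p = 0.781). Its second probe gave -0.40 and 0.17.

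Cdkn1a was higher in Rbpj-cKO RNA on both arrays, the only member to be so, and the amount depended on the probe. Its brightest probe (chromosome 17, 29237377 to 29237436, mm9, plus strand) had log2 intensities of 12.36 and 12.52 in Rbpj-cKO RNA, against 12.06 and 12.22 in control RNA. Both Rbpj-cKO values exceeded both control values. The log2 ratios were 0.29 and 0.30, a mean of 1.23-fold (limma adjusted p = 0.25).

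A second probe, at 29227986 to 29228045 upstream on the same strand, is annotated in the array files to transcript variant 2 of Cdkn1a alone. It had log2 intensities of 9.05 and 9.94 in Rbpj-cKO RNA, against 7.65 and 7.86 in control RNA, so the groups were well apart. The log2 ratios were 1.39 and 2.08, which is 2.63-fold and 4.22-fold, with a mean of 1.73 ± 0.48 (SD, n = 2). In a limma fit of all 28175 single probes, added after seeing the data, its adjusted p was 0.106, and 0.00355% of the probes passed the threshold. By mean ratio it was the fifth highest of these probes, and 0.33% of them were at least 1.5-fold higher on both arrays. Over the normalizations its mean log2 ratio was 1.73 to 2.21. This probe was singled out after its values were seen.

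The remaining probe, at 29235299 to 29235358 and annotated to an Ensembl transcript, had log2 ratios of 0.11 and 0.00 (adjusted p = 0.826 in the same fit). No annotation of mm9 was used here, so exon and untranslated parts of these probes are not given. In the other 9 members with more than 1 probe, the mean log2 ratios of the probes differed by at most 0.15, and all probes were below 0 on array 1. On single arrays the probes of a member differed by up to 0.42 on array 1, for Cdk1, and 0.18 on array 2, for Birc5.

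**Figure D3:**
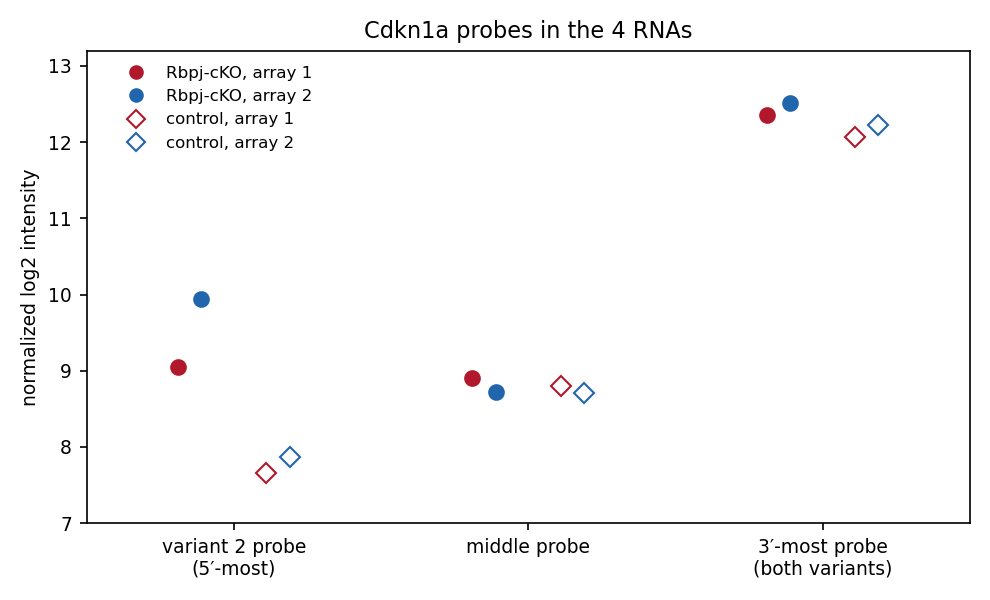
Normalised log2 intensity (y axis) of the 3 Cdkn1a probes in the Rbpj-cKO RNA, left, and the control RNA, right, of each array. The probe of transcript variant 2 is higher in both Rbpj-cKO RNAs (9.05 and 9.94) than in both control RNAs (7.65 and 7.86), and the other 2 probes differ much less.

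The upstream Cdkn1a window printed above held a p53 element of 2 adjacent 10-base parts, matched at 19 of 20 bases, 51 to 32 bases before the start. Of all 32851 windows, 0.0883% held such a match, and among the members this was the only one. The letters of the RBPJ motif stood in the window of the downstream start, 117 to 112 bases before it. The probe positions and these windows are on different genome builds and were not placed on each other.

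Other targets of p53 were looked up after the Cdkn1a values were seen, 13 genes from the list of inhibitors and arrest genes. Of these, 7 were higher on both arrays and 2 lower on both, against 31.7% and 29.8% of all genes, with median log2 ratios of 0.13 and 0.06. Of the 13, 0 passed the adjusted threshold of limma. At an unadjusted p under 0.05, 3 were higher and 1 lower, against 6.98% and 7.02% of all genes. Eda2r, a death receptor, had ratios of 0.39 and 0.39, the kinase gene Plk2 0.23 and 0.32, and the RNA-binding Zmat3 0.23 and 0.24. Bbc3, which encodes the cell death protein PUMA, went the other way with -0.47 and -0.14.

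Wider lists of cell cycle genes were also counted. Of 50 other replication genes, 49 were lower on array 1 and 33 also higher on array 2, with medians of -0.18 and 0.03. Of 77 other mitosis genes, 75 were lower on array 1 and 57 also higher on array 2, with medians of -0.27 and 0.05. Over all genes, 52.1% were lower on array 1, and 22.3% were lower on array 1 and higher on array 2. Here the replication median exceeded the mitosis median by 0.09 on array 1, and on array 2 the difference was -0.02. With median centring the array 2 median was -0.02 for the other replication genes and 0.02 for the other mitosis genes. Under that setting 28 and 34 of them were lower on both arrays, beside 31.9% of all genes. None of these genes passed the adjusted threshold of limma. At an unadjusted p under 0.05, 2 other replication genes were lower, and 1 other mitosis gene was lower and 1 higher. Of all genes, 7.02% were lower and 6.98% higher at that limma threshold.

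Among other replication genes lower on both arrays, the histone chaperone Asf1b had log2 ratios of -0.63 and -0.08 and the helicase component Cdc45 -0.38 and -0.14. Thymidine kinase Tk1 had -0.47 and -0.02. Among other mitosis genes, Racgap1, needed for cytokinesis, had -0.46 and -0.04, and Psrc1, a spindle protein, went the other way with 0.13 and 0.51. Of 26 other regulators, 13 were lower and 5 higher on both arrays, against 29.8% and 31.7% of all genes. Their medians were -0.11 and -0.01. E2f2 had the lowest mean among them, -1.09 and -0.39 (limma adjusted p = 0.25), and Myc had -0.38 and -0.16. Of 30 inhibitors and arrest genes, 9 were higher and 11 lower on both arrays, close to the 31.7% and 29.8% of all genes. Tob1, which restrains proliferation, had -0.63 and -0.42, the inhibitor Cdkn2c -0.84 and -0.12, and the inhibitor Cdkn1c -0.37 and -0.32.

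**Figure D4:**
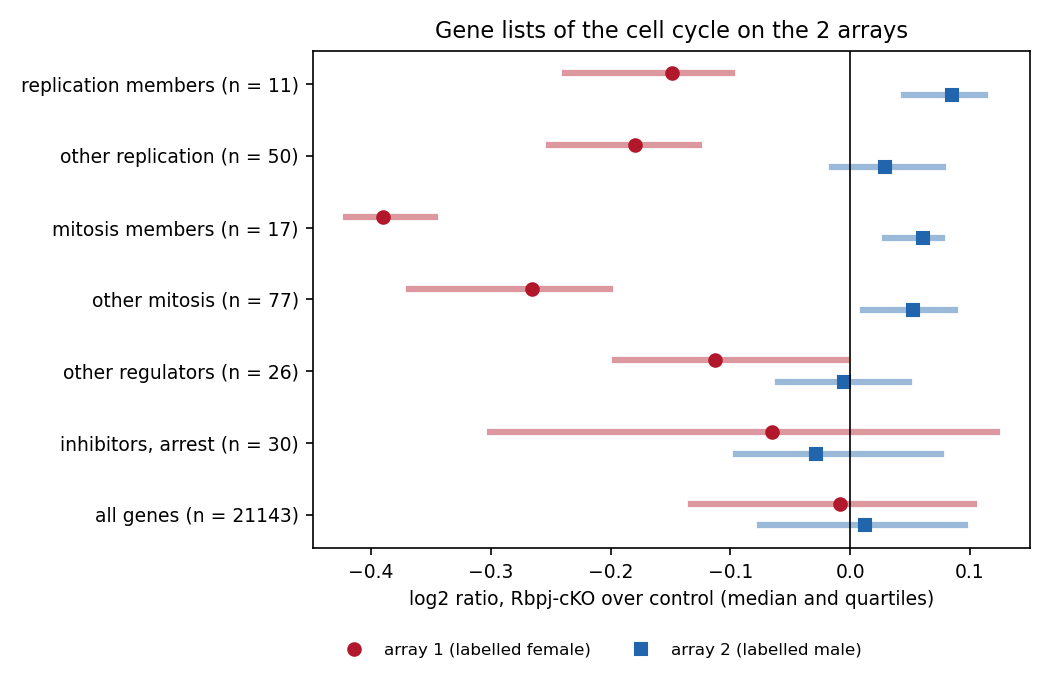
Median log2 ratio of Rbpj-cKO over control with quartiles (x axis) for lists of cell cycle genes, circles for array 1 and squares for array 2. On array 1 the medians are -0.39 for mitosis members and -0.27 for other mitosis genes, and on array 2 the medians of the lists drawn lie within 0.1 of 0.

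Markers of other cells also differed on the arrays, and their part in the members' values was not tested. All 13 adipocyte markers were lower on both arrays, with median log2 ratios of -2.74 and -1.06. The log2 of their summed level was 17.2 to 17.3 in Rbpj-cKO RNA, against 18.3 to 19.7 in control RNA. Of 18 hepatocyte markers measured, 14 were higher on array 1 and lower on array 2, with medians of 0.46 and -2.27, and 2 more did not pass the filter. Their summed log2 level was 15.7 to 15.9 in Rbpj-cKO RNA, against 15.6 to 16.8 in control RNA.

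Endothelial markers, 10 of 10 lower on array 1, had medians of -0.22 and -0.10. Their summed log2 level was about equal in both Rbpj-cKO RNAs, at 16.6, against 16.7 to 17.0 in control RNA. Of the leukocyte markers, 8 of 12 were lower on array 1 and higher on array 2, as most members were, with medians of -0.14 and 0.06. Their summed log2 level was 15.3 to 15.4 in Rbpj-cKO RNA, against 15.3 in both control RNAs, so that on array 1 the sum did not share the sign of the median, and 1 of them was not well above background in every RNA. Urothelial markers had medians of 0.39 and 0.04, with 12 of 13 higher on array 1, and smooth muscle markers -0.23 and -0.35. Median centring turned the smooth muscle median on array 1 to 0.20 and the array 2 medians to -0.41 for urothelial and -0.24 for fibroblast markers. With loess, fibroblast markers had medians of 0.18 and 0.04, erythroid markers -0.22 and -0.16, and kidney epithelium markers, 8 of 12 measured, 1.06 and 0.42. The summed log2 level of the kidney markers went the other way, at 14.7 in both Rbpj-cKO RNAs, against 14.9 to 15.0 in control RNA.

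**Figure D5:**
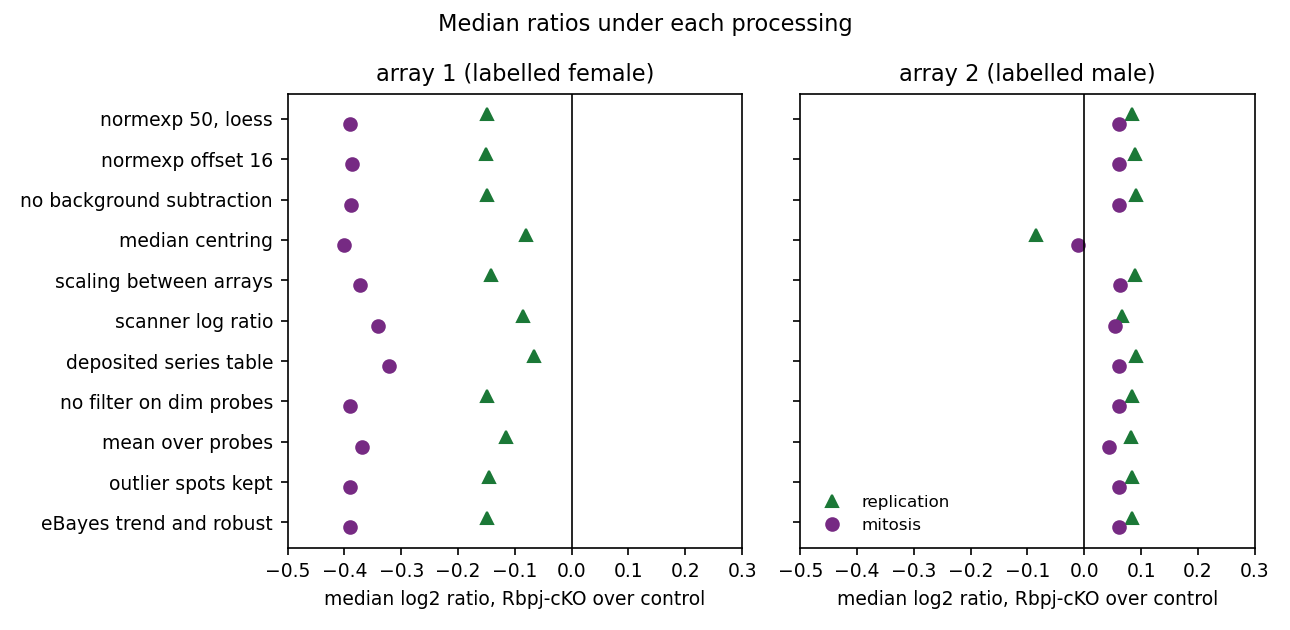
Median log2 ratio of Rbpj-cKO over control (x axis) of the replication members (triangles) and the mitosis members (circles) on each array, for the processing described and 10 alternatives. On array 1 mitosis lies left of replication throughout, and on array 2 median centring moves both to or below 0 (-0.09 for replication and -0.01 for mitosis).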

How the data were processed

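Spot values were deposited as fluorescence intensity, extracted with Agilent Feature Extraction 10.7.3.1 per the submitters' processing notes. Per the file headers, the scanner's ratio column holds log10 of red divided by green. The deposited series table is a score read as signed fold change, in which 31.8% and 31.6% of values were exactly 1, a log2 ratio of 0, so that small ratios in it are uncertain. Its log2 values correlated across kept probes with the loess-normalised log2 ratios used here, at r = 0.970 and 0.960. Each column's median was 1, and the centring of that table is not known. Each array held 157716 gene spots (39429 probes, 4 spots each), and 71.8% to 74.0% of gene spots were well above background in a channel. No gene spot was saturated, and both arrays lay on 1 slide and 1 scan.

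Mean signals were corrected with normexp (offset 50) and normalised by loess within arrays. Control spots had weight 0, and outlier-flagged spots were dropped. Each ratio was given the direction Rbpj-cKO over control, and replicate spots were averaged per probe. Probes stayed in if at least 1 genotype had over 50% of their spots clearly above background (the scanner's flag) on both arrays. The brightest probe stood for a gene, named by RefSeq (GRCm38.p6) for 28328 probes. The log2 ratios were tested with limma 3.58.1 (lmFit and eBayes under R 4.3.3; two-sided), and Benjamini-Hochberg adjusted p-values were held to 0.05. Levels are log2 intensities per RNA after between-array quantile scaling of the mean brightness. Probe levels were compared within a probe only. The number of arrays (n = 2) limits the precision, and p-values rest on the spread between these pairs. Only the limma fit of gene ratios was tested on simulated data, for the sign and size of its estimates. The extraction, normalization, filter and probe choice were not tested in this way. Members and lists were chosen with earlier results of these data known. Named genes are members and up to 4 per other list with the largest absolute mean among those with 1 sign. Outside this rule, Rbpj, Tbx18 and the sex-linked genes were named as checks. Plk2, Zmat3 and Bbc3 were named among the p53 targets, after the Cdkn1a values were seen. Alternatives were background, normalization, filter, probe choice, outlier spots and test options.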

Additional observations from a re-analysis of the deposited data

Results flagged for a closer look

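In 4 members the ratio of Rbpj-cKO over control had opposite signs in the pair labelled female (array 1) and the pair labelled male (array 2) and the log2 ratios lay over 1.5-fold apart. The difference of the log2 ratios, female minus male pair, was -0.81 for Aurkb, -0.78 for Birc5, -0.69 for Rrm2 and -0.65 for Cdc20. The difference was not tested, since there is 1 pair per labelled sex, and dye orientation and replicate number change with it. The Y-linked signal also differed between the Rbpj-cKO and control RNA of array 1. Such opposite signs and gaps were met by 1.79% of all genes.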

How the results depend on the processing

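Of 370 mean log2 ratios of members under 10 alternatives, 12 reversed their sign, in 8 members, all from means within 0.03 of 0. Under median centring these were Mcm2 (-0.0082), Mcm4 (-0.020), Cdc6 (-0.016) and Tyms (-0.020), and under scaling between arrays Pcna (0.00054). With the scanner log ratio they were Pcna (0.033), Ccnd1 (0.0049) and Ccnd2 (0.0081). In the deposited series table they were Mcm3 (0.013), Pcna (0.054), Ccnd1 (0.00081) and Ccnd2 (0.022). The mean over probes gave 1 member at least 1.5-fold higher on both arrays, Cdkn1a, at log2 ratios of 0.60 and 0.79 (limma adjusted p = 0.14), in place of 0. No member passed the adjusted threshold under any of them. Over all genes the trended and robust option called 95, against 1 without it and 0 with median centring, scaling, the scanner log ratio or the series table. Median centring put 19 members lower on both arrays, in place of 7, and gave array 2 medians of -0.09 for replication and -0.01 for mitosis. Leaving out 1 array gave medians of -0.32 and 0.07 for all members, -0.15 and 0.08 for replication, and -0.39 and 0.06 for mitosis. The test of the mean ratio is itself the analysis of the 2 pairs, so no further block was fitted. Signal over background did not limit the members, all well above it.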
